A study of Mus musculus with 6 samples.

Results

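The miR-29 and miR-148/miR-152 families of microRNAs (miRNAs) were examined in mouse embryonic stem cells (ESCs) and in neuronal cells (NCs) derived from them with retinoic acid (RA). The members were the 7 rows of the deposited small-RNA table named mir-29a, mir-29b-1, mir-29b-2, mir-29c, mir-148a, mir-148b and mir-152, of 898 miRNA genes in all. They were selected by name, as known regulators of DNA methyltransferases, with no threshold on their values. The study compared 3 ESC libraries with 3 NC libraries. All 6 came from E14Tg2a, a feeder-independent line of mouse ESCs used at passages 37 to 40, and ESCs were kept in leukemia inhibitory factor (LIF), the cytokine that holds them in self-renewal. NCs were the same line grown as monolayers without LIF and with 1 µM RA for 48 hours. Both groups are therefore 1 line, and the RNA of each replicate came from a pair of plates, and p-values measure the spread between these libraries. An early time after RA limits the NCs as a model of neurons.

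DNA methyltransferases place methyl groups on cytosine. Dnmt1 copies the methylation pattern after replication, Dnmt3a and Dnmt3b set new marks, Dnmt3l is their cofactor, and the Tet enzymes oxidise methylcytosine. miRNAs are short RNAs that guide Argonaute proteins to messages, mainly through the seed, bases 2 to 8 from the 5′ end, and lower the stability or translation of the message. miR-29 is known as a regulator of Dnmt3a, Dnmt3b and the Tet genes and is abundant in mature neurons and muscle. miR-148a and miR-152 are known as regulators of Dnmt1.

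The mature 3′ strands are shown because each family is defined by its seed, given in capitals. They were taken from RefSeq (GRCm38.p6), in which all 7 members were matched.
miR-29a-3p: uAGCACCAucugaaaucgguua
miR-29b-3p: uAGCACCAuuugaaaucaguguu
miR-29c-3p: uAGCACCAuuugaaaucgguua
miR-148a-3p: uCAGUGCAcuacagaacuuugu
miR-148b-3p: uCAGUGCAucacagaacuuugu
miR-152-3p: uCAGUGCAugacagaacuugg
The miR-29 strands shared the seed AGCACCA and the miR-148/miR-152 strands the seed CAGUGCA, and no other miRNA of the RefSeq table held either. Outside the seed, miR-29a-3p and miR-29c-3p differed by C10U, counted from 1 at the 5′ end with the base of the first-named strand first. miR-148a-3p and miR-148b-3p differed by C9U and U10C, and miR-148a-3p and miR-152-3p by C9U, U10G and U20G. The longest run of bases shared by a pair of miR-148/miR-152 strands was 12. The genes mir-29b-1 and mir-29b-2 give the same 3′ strand, so reads of that strand cannot be assigned to either copy. How such reads were counted is not given in the sources used here. The copies mir-26a-1 and mir-26a-2 had near-equal means (13286 and 13288 in ESCs), so a shared read may have been counted at each copy.

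The 7 genes lay on 4 chromosomes (GRCm38, GENCODE M21). Mir29a (chr6:31062660-31062747, minus strand) lay between annotated genes, and Mir29b-1 (chr6:31063023-31063093, minus strand) lay in an exon of the long non-coding RNA Gm27019, with 275 bases between the hairpins. Mir29b-2 (chr1:195037040-195037120) and Mir29c (chr1:195037547-195037634), both on the plus strand, lay in exons of the transcript A330023F24Rik, opposite an exon of Cd46, with 426 bases between them. The miR-148/miR-152 genes were not clustered. Mir148a (chr6:51269812-51269910, minus strand) lay between annotated genes, Mir148b (chr15:103285125-103285221, plus strand) in an intron of Copz1, and Mir152 (chr11:96850393-96850465, plus strand) in an intron of Copz2, the paralog of Copz1. Both host genes encode zeta subunits of the coat protein complex I and are read from the same strand as the miRNA.

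Complements of the 2 seeds in the 3′ untranslated regions (UTRs) of the methylation genes are shown in capitals with 11 bases on either side, to relate the strands above to the genes for which the families are known. The letters searched were TGGTGCT for miR-29 and TGCACTG for miR-148/miR-152, on the transcript strand only, in the longest 3′ UTR of each gene (GRCm38).
Dnmt1, miR-148/miR-152, chr9:20907481-20907509, minus strand: agagccccacgTGCACTGatgtttttaac
Dnmt3a, miR-29, chr12:3911394-3911422, plus strand: ggggaggtagcTGGTGCTagcaccagggt
Dnmt3a, miR-29, chr12:3911463-3911491, plus strand: gggtcccaagcTGGTGCTaattcctctca
Dnmt3b, miR-29, chr2:153686616-153686644, plus strand: gtagcccggcaTGGTGCTcatgttctctt
The 312-base UTR of Dnmt1 held 1 match to miR-148/miR-152 and 0 to miR-29, where 3.03% of UTRs of like length held a miR-148/miR-152 match. The 6696-base UTR of Dnmt3a held 5 matches to miR-29, of which the 2 shown are followed by A, and 0 to miR-148/miR-152. Of UTRs of like length, 46.0% held at least 1 miR-29 match. This share and those below count UTRs with 1 match or more, and the share with as many matches was not computed. Dnmt3b held 1 match to miR-29 (11.9% of UTRs of like length), and Dnmt3l held 0 to either. Tet1, Tet2 and Tet3 held 7, 5 and 8 matches to miR-29 and 0 to miR-148/miR-152, with 51.2%, 26.5% and 42.5% of UTRs of like length holding a miR-29 match. Over all 20961 genes with a 3′ UTR, 13.1% held a match to miR-29 and 12.6% to miR-148/miR-152. A match describes the letters of the UTR, and neither binding nor the mRNAs of these genes were measured in these libraries.

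The deposited values were the authors' means of size-factor-normalized read counts in each group. Whole reads of the single libraries were recovered from these means, which are sums of whole multiples of 3 steps, for 528 of 549 detected miRNAs (ESCs) and 581 of 602 (NCs), all 7 members included. In each group the library with the largest size factor was called A, the next B and the smallest C (1.62, 0.937 and 0.547 for the ESCs, 2.31, 0.977 and 0.585 for the NCs), and none could be tied to a numbered replicate. Resolved reads ranged from 92342 to 352110 per library. They held 12.3% of the summed means in ESCs and 9.87% in NCs, since the most abundant miRNAs were not resolved. Library C, with the smallest size factor and the fewest resolved reads of its group, stood apart from A and B in both groups. In this sense C is called the shallowest library and A and B the deeper ones. Total depth is not known, and its part in the deviation of C was not tested. The SD across miRNAs of the log2 ratio between A and B was 0.371 in ESCs and 0.337 in NCs, against 1.19 to 1.34 for every pair with C. The differences of the members are therefore given also with this library set as a covariate and from libraries A and B alone. The covariate joins library C of the ESCs and of the NCs by their size factors only. The labels name no batch, and whether these libraries were made together is not known.

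mir-148a was the most abundant member, and its means in the 2 groups were close beside a wide spread between libraries. Its normalized counts were 1341, 1038 and 928 in ESC libraries A, B and C, and 1249, 1372 and 576 in NC libraries A, B and C. The groups overlapped, and the lowest value was that of the shallowest NC library. The means were 1102 ± 214 in ESCs and 1066 ± 428 in NCs (SD, n = 3). The libraries are of whole cultures, in which fewer cells with a miRNA and less of it per cell cannot be told apart. The values rest on 508 to 2175 reads per ESC library and 337 to 2881 per NC library.

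mir-152 had a higher mean in NCs. Its normalized counts were 257, 212 and 166 in the ESCs and 430, 385 and 239 in the NCs (libraries A, B and C). Libraries A and B of the NCs lay above all ESC libraries, while NC library C lay below ESC library A. The means were 212 ± 45.4 in ESCs and 352 ± 99.8 in NCs (SD, n = 3), an NC to ESC ratio of 1.66.

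mir-148b had the lowest mean of the 3 in both groups. Its normalized counts were 207, 224 and 130 in the ESCs and 301, 334 and 168 in the NCs (libraries A, B and C). The same pattern held, with the 2 deeper NC libraries above all ESC libraries and NC library C inside the ESC range. The means were 187 ± 50.3 and 267 ± 88.0 (SD, n = 3), a ratio of 1.43.

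**Figure D1:**
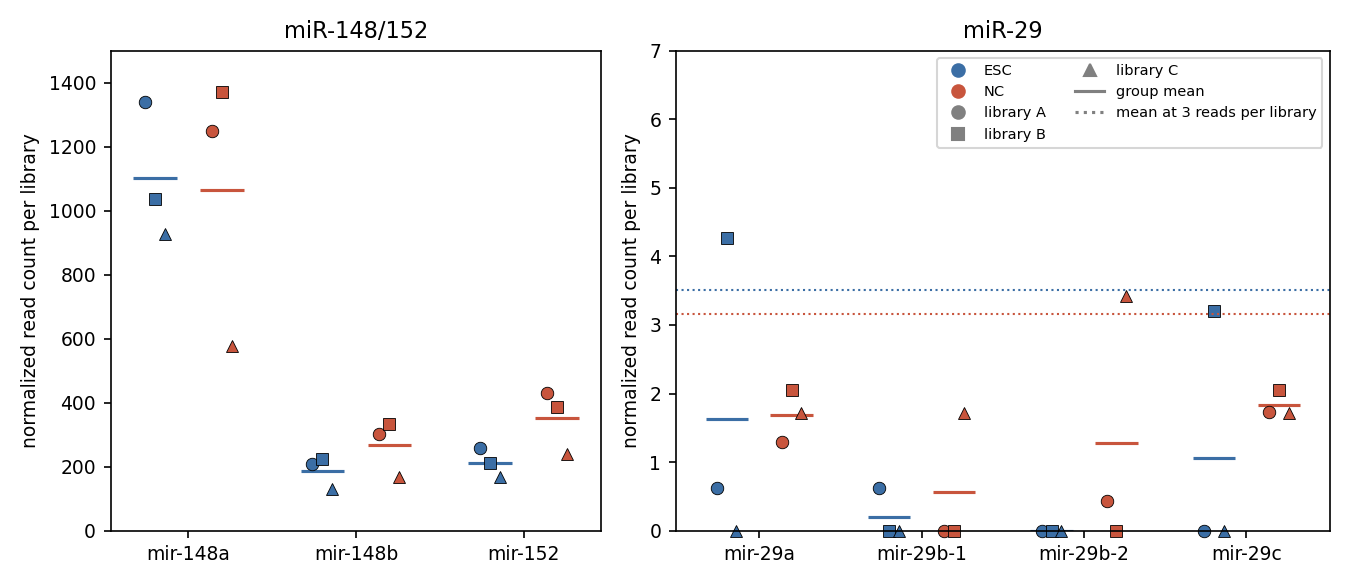
Normalized read count (linear axis) of each member in the recovered libraries, ESCs in blue and NCs in red, with library A as a circle, B as a square and C as a triangle, horizontal bars for the group means and dotted lines for the mean that 3 reads in every library would give (3.51 in ESCs, 3.17 in NCs). mir-148a overlaps between groups around 1102 and 1066, the deeper NC libraries of mir-148b and mir-152 sit above the ESC libraries, and every miR-29 mean lies under the dotted lines.

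In order of level, mir-148a was above mir-152 and mir-148b in all 6 libraries. mir-152 was above mir-148b in all 3 NC libraries and in ESC libraries A and C, and in ESC library B mir-148b (224) was above mir-152 (212). These are counts per miRNA gene, in which the share of the 3′ and 5′ strands is not known, and they were not divided by length (21 or 22 bases for the 3′ strands, 22 to 24 for the 5′ strands). Among the 898 genes, mir-148a ranked 61 by mean in ESCs and 59 in NCs, mir-152 ranked 116 and 104, and mir-148b ranked 125 and 110. The summed normalized count of the family was 1805, 1474 and 1224 in ESCs and 1980, 2091 and 983 in NCs (libraries A, B and C). The family means of 1501 ± 291 and 1685 ± 610 (SD, n = 3) differed by less than the spread between libraries.

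**Figure D2:**
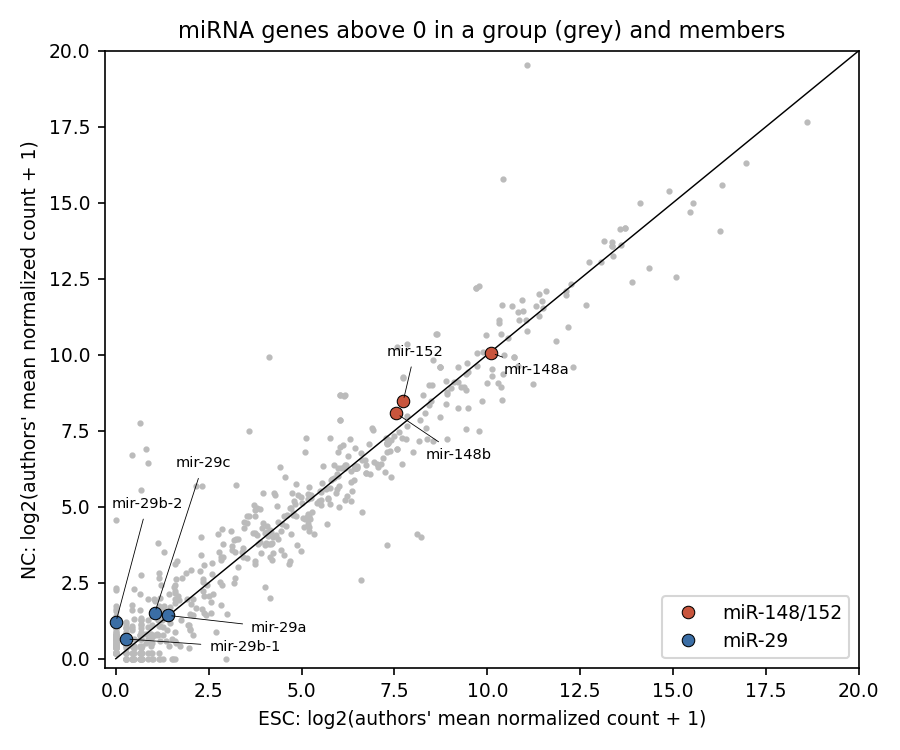
Authors' group means of all miRNA genes above 0 in a group, as log2(mean + 1) with ESCs on the horizontal and NCs on the vertical axis, miR-148/miR-152 in red, miR-29 in blue and the line of equal levels in black. mir-148a lies on the line, mir-148b and mir-152 lie above it, and the 4 miR-29 genes lie in the corner of lowest levels.

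To test the differences, limma-voom was fitted to the recovered reads of the 316 miRNAs that reached 10 reads in 3 libraries, with Benjamini-Hochberg adjustment over all of them. The fit called 49 miRNAs between NCs and ESCs (15.5% of those tested), 31 higher (9.81%) and 18 lower in NCs. Of the 7 members, 3 passed the filter and 0 were called. None of the 3 had an unadjusted p under 0.05, where 81 of the 316 miRNAs did, and limma-trend also called 0 members. The NC minus ESC log2 difference was -0.15 for mir-148a (SE 0.41, 95% interval -1.12 to 0.82, limma adjusted p = 0.890). For mir-148b it was 0.46 (SE 0.37, interval -0.41 to 1.33, limma adjusted p = 0.544). For mir-152 it was 0.68 (SE 0.32, interval -0.07 to 1.43, limma adjusted p = 0.239). The interval reaches past a halving for mir-148a and past a doubling for mir-148b and mir-152. The fit with all libraries therefore does not show equal levels for any of the 3. Exact two-sided permutation tests of the mean log2(normalized count + 1) gave p = 0.9 for mir-148a, 0.3 for mir-148b and 0.2 for mir-152. With 3 against 3 libraries this p cannot go below 0.1. The normalized counts of all 3 members overlapped between the groups, and 31.0% of the 316 miRNAs did not overlap.

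The calls of mir-148b and mir-152 depended on library C. In library C of each group, the values of all 3 members were below the mean of A and B on the log2 scale. The differences from that mean were -0.35, -0.73 and -0.49 for mir-148a, mir-148b and mir-152 in ESCs and -1.18, -0.92 and -0.76 in NCs. Over the 316 miRNAs the medians of the same quantity were 0.02 in ESCs and -0.01 in NCs, and the first quartiles were -0.77 and -0.81. Values below 0 were frequent, at 48.7% of the 316 miRNAs in ESCs and 50.3% in NCs. With the library set as a covariate, 142 miRNAs were called (44.9%), 74 of them higher in NCs (23.4%), and mir-148b and mir-152 were among these. The log2 differences were 0.50 for mir-148b (SE 0.14, limma adjusted p = 0.0142) and 0.72 for mir-152 (SE 0.15, limma adjusted p = 0.00296). mir-148a was not called (-0.11, SE 0.19, 95% interval -0.52 to 0.31, limma adjusted p = 0.668). Each group holds a library C, so the covariate could move the sizes only through the weights of the fit. Their closeness to the fit without the covariate is therefore set by the design, while the errors were smaller. In libraries A and B alone, the differences were 0.13, 0.56 and 0.80 for mir-148a, mir-148b and mir-152, with limma adjusted p of 0.476, 0.00449 and 0.000469, where 28.1% of 324 miRNAs were called higher. In these deeper libraries mir-148b and mir-152 did not overlap between groups, as was the case for 37.7% of miRNAs in that direction. Calls higher in NCs were therefore frequent in both settings, and those of mir-148b and mir-152 were 2 among many.

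**Figure D3:**
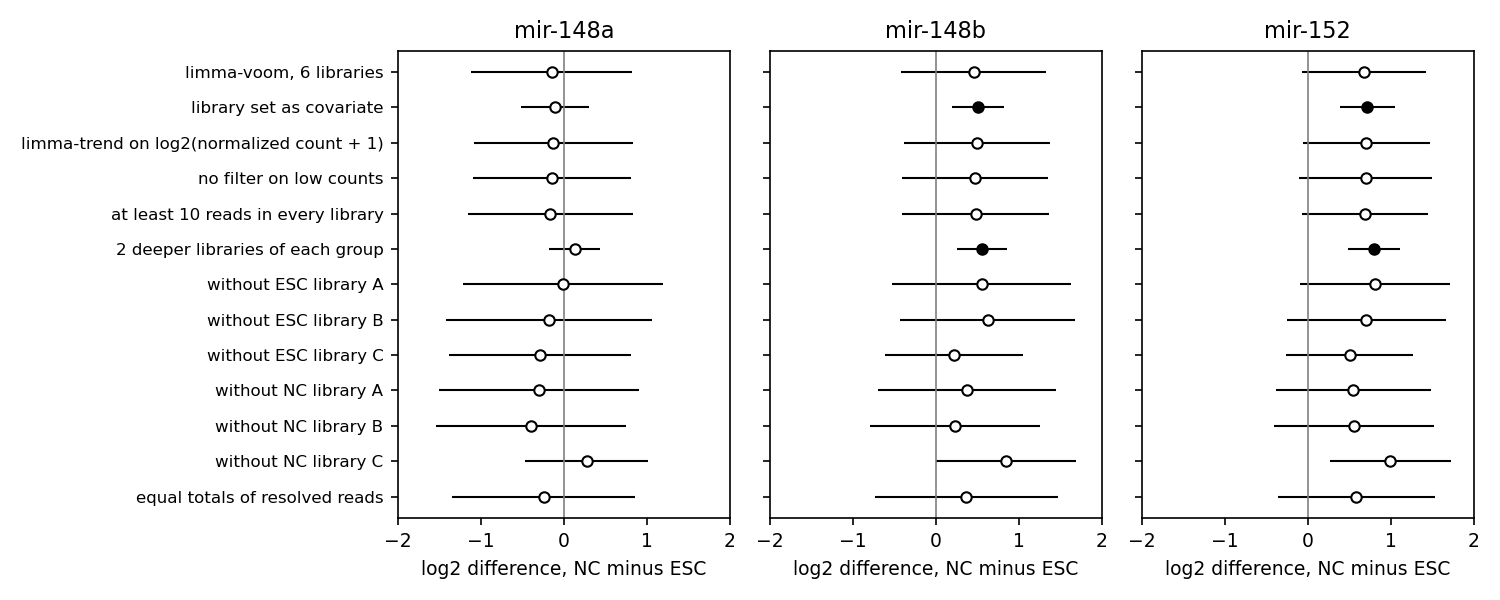
NC minus ESC log2 difference of mir-148a, mir-148b and mir-152 in limma with all 6 libraries (top) and under the other settings named on the vertical axis, with bars for 95% intervals, a line at 0, and filled points where the adjusted p was under 0.05. Filled points appear for mir-148b and mir-152 with the library set as covariate (0.50 and 0.72) and in the 2 deeper libraries of each group (0.56 and 0.80), all points of both lie above 0, and those of mir-148a lie on either side of it.

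The scale between groups also bears on these values. The alternatives were tried with and without mir-10a, the miRNA with the highest mean in NCs. On log2(mean + 1) of the authors' group means, mir-148a differed by -0.05, mir-148b by 0.51 and mir-152 by 0.73, where the median of 332 miRNAs with a mean of at least 10 was -0.08. Setting the groups to the same total lowered every difference by 0.48, which put mir-148a at -0.52, mir-148b at 0.04 and mir-152 at 0.25. Setting them to the same total without mir-10a raised every difference by 0.44 and put mir-148a at 0.39, mir-148b at 0.95 and mir-152 at 1.17. The direction of mir-148a thus turned with the scale, as it did with the choice of libraries, and mir-148b was near equal at equal totals, with 162 ppm of the summed means in ESCs and 167 in NCs. mir-152 was higher in NCs under each scale (184 and 219 ppm), and mir-148a had 956 and 665 ppm.

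The proportions of the 3 members inside a library need no scale, and these were examined after the values had been seen. mir-148a made up 74.3%, 70.4% and 75.8% of the family's reads in ESC libraries A, B and C, and 63.1%, 65.6% and 58.6% in NC libraries A, B and C. Every NC library was below every ESC library, with means of 73.5% ± 2.79 and 62.4% ± 3.55 (SD, n = 3). The share of mir-152 was 14.2%, 14.4% and 13.6% in ESCs and 21.7%, 18.4% and 24.3% in NCs, also without overlap. That of mir-148b was 11.5%, 15.2% and 10.6% in ESCs and 15.2%, 16.0% and 17.0% in NCs. These shares rest on 575 to 4568 reads per library.

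As a ratio of reads, mir-152 to mir-148a was 0.192, 0.205 and 0.179 in ESCs and 0.345, 0.281 and 0.415 in NCs. The log2 difference was 0.84 (SE 0.17), and the exact two-sided permutation p of 0.1 is the smallest that 3 against 3 libraries can give (0.15 adjusted over the 3 pairs of members). The ratio of mir-148b to mir-148a was 0.154, 0.216 and 0.140 in ESCs and 0.241, 0.243 and 0.291 in NCs, a log2 difference of 0.62 (SE 0.21) with the same exact p of 0.1. In both ratios the shallowest library of each group fell on the side of its own group. Of 302 miRNAs compared with mir-148a in this way, 15.9% did not overlap and were higher in NCs, and 22.8% did not overlap in either direction. The ratio of mir-152 to mir-148b was 1.24, 0.948 and 1.28 in ESCs and 1.43, 1.15 and 1.43 in NCs, which overlapped (log2 difference 0.22, SE 0.17, exact permutation p = 0.3).

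**Figure D4:**
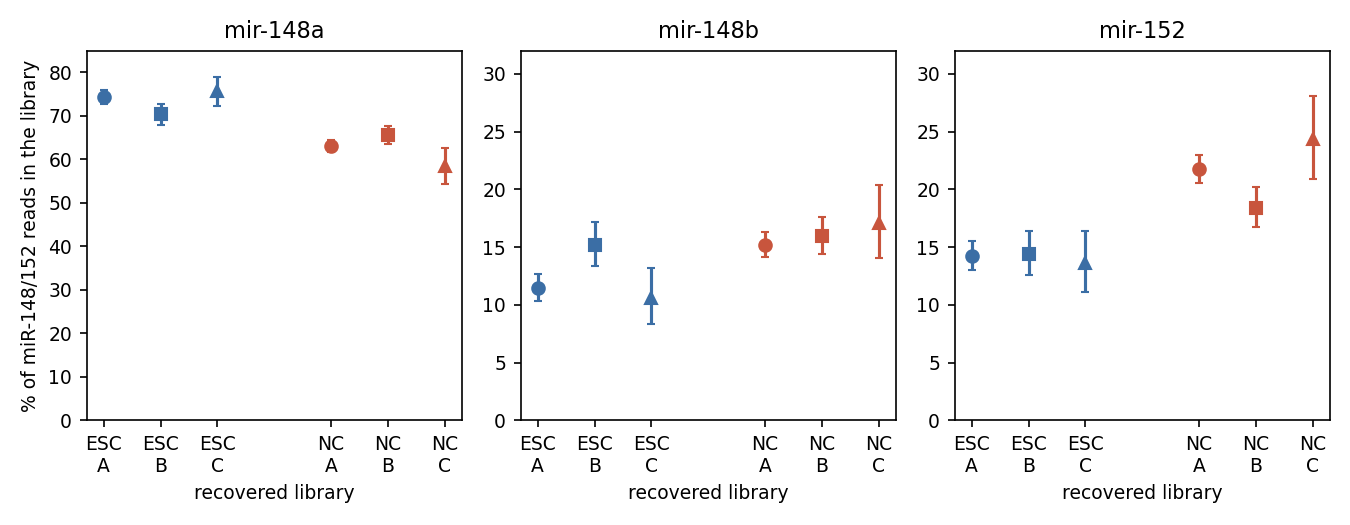
Share of the family's reads taken by mir-148a, mir-148b and mir-152 in each recovered library, in percent, with bars for exact 95% binomial intervals that cover counting error only. The mir-148a share is 70.4% to 75.8% in ESCs and 58.6% to 65.6% in NCs, the mir-152 share is higher in every NC library than in every ESC library, and the mir-148b share touches between groups at 15.2%.

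The miR-29 genes were near the limit of detection in both groups. mir-29a had 1, 4 and 0 reads in ESC libraries A, B and C and 3, 2 and 1 in NC libraries A, B and C. mir-29c had 0, 3 and 0 reads in ESCs and 4, 2 and 1 in NCs. Of the genes that share the miR-29b strand, mir-29b-1 had 1, 0 and 0 reads in ESCs and 0, 0 and 1 in NCs, and mir-29b-2 had 0, 0 and 0 reads in ESCs and 1, 0 and 2 in NCs. A count of 0 allows up to 3 reads. The mean that 3 reads in every library would give was 3.51 in ESCs and 3.17 in NCs, and all 4 genes were under it in both groups, as were 239 of the 634 detected miRNAs (37.7%). The authors' means were 1.63 and 1.69 for mir-29a, 0.205 and 0.570 for mir-29b-1, 0 and 1.28 for mir-29b-2 and 1.07 and 1.83 for mir-29c (ESCs and NCs). No fold change was given for these genes, and none passed the filter for testing. The counting rule is not given in the sources used here, and its part in these low counts was not tested.

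Summed over the 4 genes, miR-29 had 2, 7 and 0 reads in ESC libraries A, B and C and 8, 4 and 5 in NC libraries A, B and C. ESC library B thus held most of the ESC reads. The 9 reads of all ESC libraries correspond to 2.90 per unit of size factor (exact Poisson 95% interval 1.32 to 5.50), and the 17 of all NC libraries to 4.39 (2.56 to 7.04). The intervals overlap and cover counting error only, and the difference was not tested. A read of the miR-29b strand counted at both its genes would enter these sums more than once, which the intervals do not allow for. By comparison, miR-148/miR-152 had 4980 reads in ESCs and 7185 in NCs.

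The miRNAs whose levels over the 6 libraries were most like those of the members were found by the root-mean-square distance between log2(normalized count + 1) profiles, each centred on its own mean. For mir-148a these were mir-433 (0.155), mir-30b (0.155) and mir-370 (0.182), where the median distance to all other tested miRNAs was 0.722. For mir-148b they were mir-15a (0.0959), mir-17 (0.178) and mir-34c (0.201), with a median of 0.766. mir-15a, at 364, 373 and 194 in ESCs and 490, 495 and 248 in NCs, had the drop in library C and the higher level in NCs that mir-148b had. For mir-152 they were mir-17 (0.139), mir-410 (0.143) and mir-676 (0.156), with a median of 0.770. mir-17, from the miR-17-92 cluster of proliferating cells, was near both mir-148b and mir-152. Within the family, mir-148b and mir-152 were 0.202 apart, and mir-148a was 0.374 from mir-148b and 0.452 from mir-152. The profiles share the same 6 libraries and their depths, so these distances are a description.

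Other miRNAs known to act on DNA methyltransferases or Tet enzymes were listed for comparison. Of 8 methyltransferase-linked miRNAs, 6 were tested and limma-voom called 0 (median log2 difference -0.01, against -0.07 over all 316). With the library set as covariate, 2 of the 6 were lower in NCs and 0 higher, where 21.5% of all 316 miRNAs were called lower and 23.4% higher. These were mir-377, with means of 283 in ESCs and 142 in NCs (log2 difference -1.01, limma adjusted p = 0.000866), and mir-101a, with 35.8 and 19.0 (-0.88, limma adjusted p = 0.0184). mir-126a, best known from endothelial cells, had means of 2563 and 3086, and mir-140, known from cartilage, 95.4 and 107. mir-143 was listed at 0 in both groups. Of 4 Tet-linked miRNAs, 2 were tested and 0 called, and with the covariate 1 of the 2 was higher in NCs, a direction in which 23.4% of all miRNAs were called. This was mir-26b, with means of 3061 and 4343 (log2 difference 0.49, limma adjusted p = 0.00889). The copies mir-26a-1 (13286 and 18380) and mir-26a-2 (13288 and 18372) share their mature strand and were not resolved into libraries.

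The labels of the groups were compared with marker miRNAs. Of the 10 miRNAs of the ESC clusters miR-290 and miR-302, 6 were tested and limma-voom called all 6 lower in NCs, and their summed mean was 137710 in ESCs and 31399 in NCs. The neuronal mir-9 copies had log2 differences of 0.90 to 0.91 (limma adjusted p = 0.0803) and were called higher with the covariate. The 3 copies of mir-124, a defining miRNA of neurons, had low means of 2.09 to 2.70 in ESCs and 5.19 to 6.02 in NCs. They did not pass the filter for testing. Markers of mesenchyme summed to 151 in ESCs and 161 in NCs. The copies mir-199a-1 (18.4 and 41.0) and mir-199a-2 (18.1 and 42.6) were called higher in NCs, and their near-equal means may hold the same reads. The sum would then count these reads more than once. mir-214 (1.48 and 10.3) was not tested, and mir-143 was at 0. mir-145a, the most abundant of the mesenchyme markers, had means of 113 and 67.1. It was called lower with the covariate (log2 difference -0.80, limma adjusted p = 0.00218), but not without it (limma adjusted p = 0.101). Those of blood summed to 927 and 360, nearly all of it mir-142, which was called lower in NCs with the covariate. The 4 muscle miRNAs of the table were at 0, and mir-122 of liver had means of 0.411 and 0. The part of these in the levels of miR-148/miR-152 was not tested.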

How the data were processed

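Small-RNA libraries of 3 ESC and 3 NC samples were grouped by their labels. The deposited table held, for each miRNA gene, signal columns with the authors' group means of size-factor-normalized read counts, and columns of the authors' own comparison (fold change, log2 fold change, p-values), which were not used. DESeq and build mm10 are named in the submitters' processing notes, while adapter removal, aligner, miRNA annotation and counting rule are not given in the sources used here. The counts of miRNAs with shared sequence depend on these steps.

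A group mean is the sum of 3 terms, each a whole number of reads times the step of its library. The deposited means have 10 decimals, so whole reads were found by enumeration (Python 3.11.15, numpy 2.4.6, pandas 2.3.3), for 96.2% of miRNAs above 0 in ESCs and 96.5% in NCs, 610 in both. The size factors equalled a single miRNA's ratio to the geometric mean within 1.03e-13. In simulated data, 502 of 517 miRNAs were resolved in ESCs and 544 of 562 in NCs, all correctly. No pair of libraries of a group agreed within sampling noise. Each was counted as 1 replicate because the labels name 3 per group. The check against sampling noise cannot tell separate cultures from repeated libraries of 1 culture.

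Differences were tested with limma 3.58.1 (R 4.3.3) with voom weights, the recovered size factors and Benjamini-Hochberg adjustment. A miRNA had to reach 10 reads in 3 libraries, or in 2 when 1 or both groups were cut to 2. In a simulation of 610 miRNAs, 200 were changed 4-fold, 108 of these passed the filter, 104 of them were called, and 7 other calls were false. The simulation held no library that stood apart as library C did. Its changes were also larger than the NC to ESC ratios of mir-148b (1.43) and mir-152 (1.66). It therefore does not tell how often differences of that size would be called. Log2 ratios of group means used a pseudocount of 1, which understates changes of low values. Permutation tests and intervals used scipy 1.17.1. The alternatives were other filters, scalings, tests and sets of libraries, and 13 further limma fits were made. Named miRNAs were the 7 members, those of the fixed list of methylation-linked miRNAs that were called or had a mean of at least 100 in a group, and the 3 most alike in profile to each tested member. mir-101a and mir-143 are named beside the first list's counts. The rule for the members used names only, but members and lists were chosen with earlier results of these data known.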

Additional observations from a re-analysis of the deposited data

How the results depend on the processing

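No paired analysis was possible because the libraries, recovered from group means, could not be tied to numbered replicates. The count of called miRNAs, 49, moved to 142 with the library set as covariate, 161 in the 2 deeper libraries of each group, 127 in limma-trend with the covariate (a setting chosen after the data were seen) and 30 with at least 10 reads in every library, and it ran from 17 (without ESC library A) to 52 (without NC library C) when 1 library was left out, with 19 without ESC library B, 27 without NC library A and 22 without NC library B. The count of called members was 2 in place of 0 with the covariate, in the deeper libraries and in limma-trend with the covariate, and 0 in the other 10 settings. In these 3 settings mir-148b had log2 differences of 0.50, 0.56 and 0.49 and mir-152 of 0.72, 0.80 and 0.71, with limma adjusted p of 0.0142, 0.00449 and 0.0163 for mir-148b and 0.00296, 0.000469 and 0.00488 for mir-152. mir-148a changed sign in the deeper libraries (0.13) and without NC library C (0.28), and was called in no setting. Leaving out 1 library gave -0.40 to 0.28 for mir-148a, 0.22 to 0.84 for mir-148b and 0.50 to 0.99 for mir-152, with limma adjusted p no lower than 0.587, 0.158 and 0.0792. Library depth and the unknown counting rule limit what can be said of miR-29, which had 0 to 8 reads in a library.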
